A study of Schmidtea mediterranea with 14 samples.

Results

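Whole planarians with severe pigment loss after *apob* RNAi (*apob-S*) were compared directly with whole planarians with mild pigment loss after the same RNAi (*apob-M*). Of the 14 libraries of the series, 8 entered the comparison, 4 *apob-S* and 4 *apob-M*. They were chosen by their labels alone, and no expression value was used. The comparison asks which transcripts differ with the severity of the phenotype when the dsRNA is the same. The other 6 libraries, control animals, are given for reference. All animals were uninjured *Schmidtea mediterranea* of the clonal asexual line CIW4, fed dsRNA 3 times, followed by 7 days of starvation. Animals of *apob-M* and *apob-S* ate dsRNA against *apob-1* and *apob-2* together, and control animals ate dsRNA against *egfp*, a jellyfish gene that planarians lack. Each library was made from 5 to 6 pooled animals. The *apob-M* animals had modest or regional pigment loss, and the *apob-S* animals had lost pigment over the whole body and moved less. Animals were sorted into these classes by appearance, not assigned to them at random. All animals come from a single line, and p-values measure the spread between pooled libraries of that line.

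Apolipoprotein B is the large structural protein around which lipoprotein particles are built. In vertebrates, the intestine and liver load it with triglyceride and cholesterol, with the help of microsomal triglyceride transfer protein, and secrete the particles. Receptors of the LDL receptor family then take the particles up in other tissues. In planarians, *apob-1* and *apob-2* are transcribed mostly in intestinal phagocytes, the absorptive cells of the gut. Planarian tissues are renewed throughout life by neoblasts, the dividing stem cells, whose progeny replace epidermis, muscle, gut and the ventral ciliated cells on which the animal glides. Body color comes from pigment cells that hold ommochromes, made from tryptophan, and porphyrins, made along the heme pathway.

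The transcripts on which the comparison turns first are the RNAi targets, a lipoprotein receptor and an epidermal progenitor marker, and stretches of their cloned fragments, as listed by the study, are shown here 5′ to 3′. The targets *apob-1* and *apob-2* are printed as 150 bases each. Capitals mark the longest run that both fragments share on the same strand, which is 9 bases long within the 399 letters held of each. The longest run shared with the opposite strand was 11 bases. For *ldlr-1*, 240 bases from a start codon are given, and capitals mark the 10 cysteine codons of that frame. Cysteine-rich repeats are the ligand-binding units of the LDL receptor family, and which of the 10 codons lie in such repeats was not examined. For *prog-1*, 144 bases from a start codon are given without capitals.
apob-1: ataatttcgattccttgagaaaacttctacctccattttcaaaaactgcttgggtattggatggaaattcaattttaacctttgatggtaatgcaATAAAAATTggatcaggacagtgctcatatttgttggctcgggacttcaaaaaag
apob-2: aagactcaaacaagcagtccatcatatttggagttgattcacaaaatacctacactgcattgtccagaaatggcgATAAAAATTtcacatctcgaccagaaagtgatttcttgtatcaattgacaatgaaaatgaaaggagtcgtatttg
ldlr-1: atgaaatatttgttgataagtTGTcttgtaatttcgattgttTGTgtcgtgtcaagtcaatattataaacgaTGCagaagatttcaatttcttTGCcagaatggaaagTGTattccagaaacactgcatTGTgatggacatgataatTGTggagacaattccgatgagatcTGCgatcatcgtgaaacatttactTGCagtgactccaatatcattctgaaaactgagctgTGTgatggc
prog-1: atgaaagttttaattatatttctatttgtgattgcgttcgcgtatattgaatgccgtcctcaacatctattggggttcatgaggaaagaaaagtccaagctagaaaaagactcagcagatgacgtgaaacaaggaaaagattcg

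No difference between the classes was detected in the RNAi targets. Levels are given as normalized CPM, counts relative to the library size after TMM scaling. In *apob-M* 1 to 4, *apob-1* was at 257, 302, 283 and 226 CPM. In *apob-S* 1 to 4, it was at 319, 327, 266 and 241 CPM. These ranges overlapped, and all 8 libraries lay below the 6 control libraries, which ranged from 1230 to 1702 CPM. The log2 fold change of *apob-S* over *apob-M* was 0.11 (SE 0.107, adjusted p = 0.592 by edgeR, exact two-sided permutation p = 0.457). For *apob-2*, the *apob-M* libraries were at 369, 568, 430 and 390 CPM. The *apob-S* libraries were at 457, 476, 318 and 245 CPM, again overlapping, against 980 to 1625 CPM in control. The log2 fold change was −0.23 (SE 0.19, adjusted p = 0.517 by edgeR, exact permutation p = 0.4). A difference in either target larger than the spread between libraries was thus not detected, and an equal level is not shown by these tests. The counts do not separate reads of the fed dsRNA from reads of the animals' own mRNA. The translation factor *ef-2* and the glycolytic enzyme *gapdh* differed by −0.02 and −0.06 on the log2 scale (edgeR adjusted p = 0.682 and 0.201).

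Total counts of the 8 libraries ranged from 16839133 to 22077694. A single transcript, dd_Smed_v6_4_1_1, took 7.28% of counts in *apob-M* 3 and 5.36% in *apob-S* 2, against 0.0466% to 1.32% in the other 6 compared libraries, and the TMM factors of those libraries were 0.919 and 0.935 against 0.994 to 1.04. Reads that matched several transcripts had been counted on each of them, so near-identical transcripts are not independent. On the first axis of a multidimensional scaling of the 500 most variable transcripts per pair, which held 36.8% of the variance, the *apob-S* libraries lay at 0.849 to 1.12. The *apob-M* libraries lay at −0.451 to −0.0185, and the control libraries at −0.612 to −0.322.

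**Figure D1:**
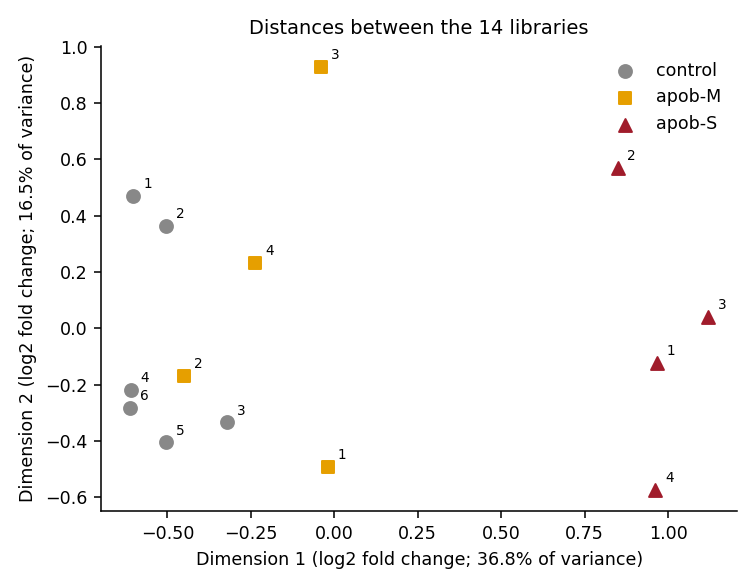
Multidimensional scaling of the 14 libraries. Both axes are leading log2 fold changes, symbols show the group and small numbers the replicate. The 4 *apob-S* libraries lie at 0.849 or above on the first axis, and *apob-M* and control overlap there.

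Of 28069 transcripts in the file, 18436 had at least 1 CPM in at least 4 of the 14 libraries and were tested with edgeR's quasi-likelihood test and Benjamini-Hochberg adjustment at 0.05. A total of 2219 transcripts (12.0%) differed between *apob-S* and *apob-M*. Of these, 954 (5.17% of all tested) were higher in *apob-S* and 1265 (6.86%) were lower. Most differences were small: the median size on the log2 scale was 0.30 among the higher and 0.33 among the lower transcripts. Large changes among the calls were mostly increases: 81 transcripts were at least 2-fold higher and 23 at least 2-fold lower, and 34 were at least 4-fold higher against 4 at least 4-fold lower. The increases include transcripts, named below, that passed the filter only with the help of *apob-S*. The only 3 decreases of at least 8-fold did not follow the classes, as given under other observations. The imbalance is thus given as a description alone. The *apob-S* libraries lay above every *apob-M* library for 1298 transcripts (7.04%) and below every *apob-M* library for 1609 (8.73%). A human best hit, the most similar human protein in the study's annotation, was at hand for 1936 tested transcripts. Among these, 222 (11.5%) were higher and 135 (6.97%) were lower, and lists drawn from them are read against these shares, the first of which is above that of all tested transcripts. The held best hits lean toward intestine-enriched and neoblast-enriched transcripts. Values given below as "higher by" or "lower, at" are log2 fold changes of *apob-S* over *apob-M*. In whole-animal RNA, fewer cells of a type and less RNA per cell cannot be told apart, and this holds for every transcript below.

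Of the lipoprotein assembly and uptake transcripts, *mttp* and *ldlr-1* were higher in *apob-S*. The *mttp* transcript encodes the transfer protein that loads apolipoprotein B with lipid. It was at 121, 119, 115 and 113 CPM in *apob-M* and at 147, 151, 147 and 153 CPM in *apob-S*, against a control mean of 70.3. The *apob-S* libraries were all above the *apob-M* libraries, which in turn were above control. The log2 fold change over *apob-M* was 0.35 (SE 0.0381, adjusted p = 6.53e-06 by edgeR). The receptor *ldlr-1* was at 90.2, 77.7, 86.3 and 78.1 CPM in *apob-M*. In *apob-S* it was at 115, 112, 121 and 123 CPM, with no overlap, and the control mean was 33.4. Its log2 fold change was 0.50 (SE 0.0562, adjusted p = 8.81e-06 by edgeR). The other receptors gave no call. For *ldlr-2* the log2 fold change was −0.08 (edgeR adjusted p = 0.251). For *vldlr-1* it was −0.09 (edgeR adjusted p = 0.135), although its *apob-S* libraries, at 224 to 230 CPM, lay below its *apob-M* libraries, at 237 to 244 CPM. The exact permutation p of *vldlr-1* was 0.0286, the smallest that 4 against 4 libraries can give.

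Markers of cell types differed for the epidermal lineage, the pharynx and 1 intestinal factor, and gave no call for neoblasts. Markers of each named cell type were detected in all 14 libraries. The early epidermal progeny marker *prog-1* was at 244, 251, 266.8 and 225 CPM in *apob-M* and at 155, 191, 168 and 171 CPM in *apob-S*. All *apob-S* libraries were below all *apob-M* libraries, and the control mean was 287.5. The log2 fold change was −0.53 (SE 0.0679, adjusted p = 4.28e-05 by edgeR). The pharynx marker *laminin* was at 36.1, 47.9, 48.1 and 47.9 CPM in *apob-M* and 30.3, 31.6, 30.5 and 32.3 CPM in *apob-S*. The lowest *apob-M* library still lay above every *apob-S* library (log2 fold change −0.53, SE 0.101, adjusted p = 0.00141 by edgeR), and the control mean was 60.8. The homeodomain factor *nkx2.2*, which is needed for renewal of intestinal phagocytes, was 0.19 higher on the log2 scale (SE 0.0441, adjusted p = 0.00578 by edgeR), at 139 to 145 CPM against 119 to 127 CPM. This call was lost with edgeR's exact test and with scaling by library size alone. Other intestinal markers gave no call: the log2 fold change was −0.03 for *ctsla* (edgeR adjusted p = 0.778), 0.10 for *slc22a6* (0.212) and 0.17 for *npc2* (0.237). The neoblast markers *piwi-1* and *tgs-1* differed by 0.07 and −0.03 (edgeR adjusted p = 0.266 and 0.911). The cholinergic enzyme *ChAT* differed by −0.18 (edgeR adjusted p = 0.0734), and the anterior pole marker *notum* by 0.22 (edgeR adjusted p = 0.63).

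**Figure D2:**
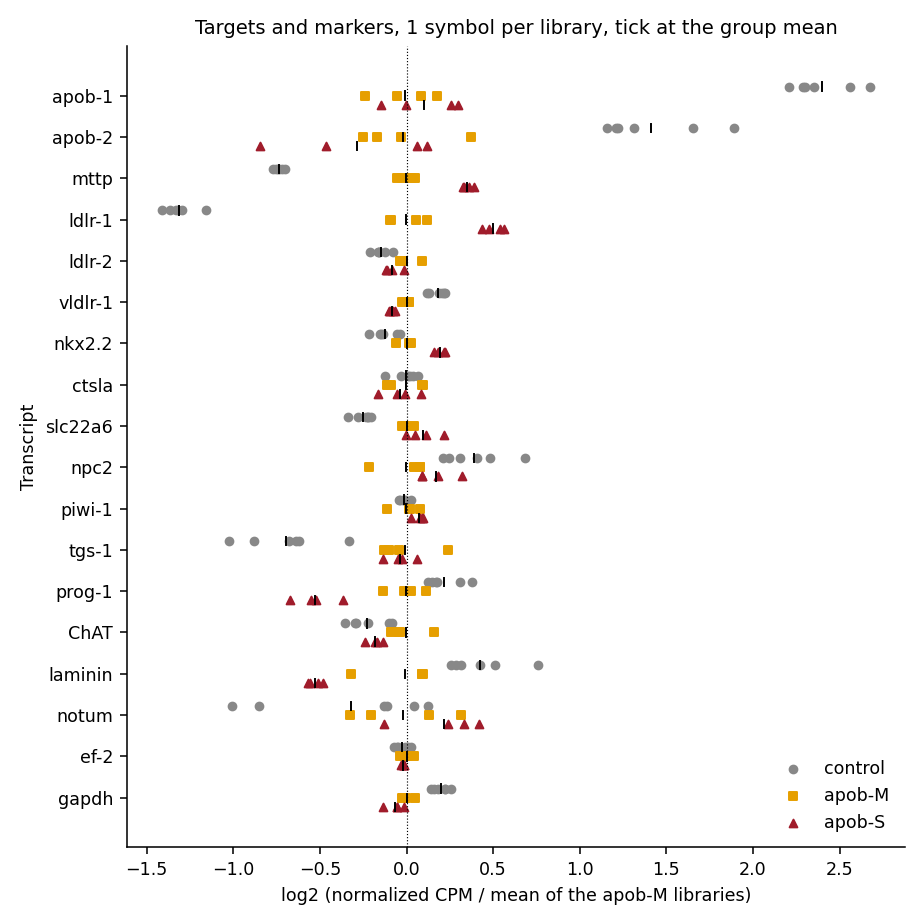
Targets, lipoprotein transcripts, cell type markers and reference transcripts. The horizontal axis is the log2 ratio of normalized CPM to the *apob-M* mean, each symbol is a library, and ticks are group means of the log2 ratios. Both *apob* targets overlap between *apob-M* and *apob-S*, *mttp* and *ldlr-1* are higher in *apob-S*, and *prog-1* and *laminin* are lower.

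The largest increases were in transcripts that were nearly absent outside *apob-S*. For dd_Smed_v6_13983_0_1, no read was counted in the 6 control libraries, 1 read in the 4 *apob-M* libraries together and 1417 reads in the 4 *apob-S* libraries. Its *apob-S* libraries were at 13.1, 7.04, 33.3 and 15.5 CPM. On the CPM scale, *apob-S* was 1390 times *apob-M*, with a 95% counting interval of 249 to 54900. Against a floor of 3 counts over the control group, *apob-S* was at least 690-fold higher. Intervals and floors of this kind pool the reads of a group and cover counting error only, not the spread between libraries. For dd_Smed_v6_1028_0_1, there were 15 reads in *apob-M*, nearly all in *apob-M* 1, and 3529 in *apob-S*. The *apob-S* libraries were at 40.7, 18.4, 69.9 and 43.3 CPM, a ratio of CPM of 231 (95% counting interval 140 to 412). In dd_Smed_v6_570_0_1, the *apob-S* libraries were at 62.2, 29.6, 108 and 65.1 CPM and *apob-M* at 1.63, 0, 0 and 0.0528 CPM. These 3 transcripts passed the filter on low values only through *apob-S*, where they are high, so no test is given for them. Their ratios, intervals and floor describe these libraries and are not support for a difference. None of them has a best hit in the tables used here, and they are given by identifier alone.

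A further set was low but measurable in *apob-M*. The homolog of SYT7, a calcium sensor for the fusion of vesicles and lysosomes with the plasma membrane, was at 0.473, 0.0935, 0.247 and 0.528 CPM in *apob-M* (dd_Smed_v6_22061_0_1). In *apob-S* it was at 7.76, 5.59, 12.4 and 12.2 CPM, so every *apob-S* library exceeded every *apob-M* library (log2 fold change 4.83). The transcripts dd_Smed_v6_4939_0_1 and dd_Smed_v6_1202_0_1 were at 83.1 to 177 CPM and 164 to 507 CPM in *apob-S*. In *apob-M* they were at 0.561 to 8.52 CPM and 3.97 to 21.7 CPM (log2 fold changes 5.60 and 5.03). For dd_Smed_v6_16532_0_1, *apob-S* was at 5.14 to 22.0 CPM and *apob-M* at 0.543 to 0.897 CPM (log2 fold change 4.12). The SYT7 homolog, dd_Smed_v6_4939_0_1 and dd_Smed_v6_16532_0_1 also reached 1 CPM in 4 libraries only with the help of *apob-S*, so their values are given without a test. A different order was seen for dd_Smed_v6_2184_0_1, which was at 2.64 to 12.6 CPM in *apob-S* and 0.0935 to 0.528 CPM in *apob-M*. Its control libraries, at 1.87 to 11.5 CPM, lay above *apob-M* and overlapped *apob-S* (log2 fold change over *apob-M* 4.74, SE 0.741, adjusted p = 0.000252 by edgeR).

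The libraries *apob-M* 1 and control 3 stood apart for several of these transcripts. The COLEC10 homolog dd_Smed_v6_10_1_1, which resembles a secreted C-type lectin of innate immunity, was at 501 CPM in *apob-M* 1 and at 111, 157 and 68.3 CPM in *apob-M* 2 to 4. It was at 1218, 947, 1293 and 1508 CPM in *apob-S* and ranged from 102 to 596 CPM in control, the highest value being control 3. The *apob-S* libraries were nevertheless above all others (log2 fold change over *apob-M* 2.57, SE 0.552, adjusted p = 0.00393 by edgeR). The same pair of libraries was high for dd_Smed_v6_19_0_1, which was at 104, 8.51, 14.2 and 5.17 CPM in *apob-M* and at 118 CPM in control 3. In *apob-S* it was at 581, 297, 595 and 526 CPM (log2 fold change 3.93, SE 0.925, adjusted p = 0.00756 by edgeR). The transcripts dd_Smed_v6_33_0_1 and dd_Smed_v6_58_0_1, listed by the study under humoral immune response, had log2 fold changes of 2.68 and 2.58 (edgeR adjusted p = 0.00406 and 0.00686). Their *apob-M* 1 values were 94.5 and 128 CPM, against 12.4 to 28.9 and 12.4 to 34.5 CPM in the other *apob-M* libraries. Above a mean log2 CPM of 2, the 8 largest increases of any kind and the 8 largest with a best hit made up a set of 16. Of them, *apob-M* 1 was the highest *apob-M* library in 11 and control 3 the highest control library in 11. Among *apob-S*, replicate 3 was the highest in 12 of the 16 and replicate 2 the lowest in 13. Without *apob-M* 1, at most 1 read in all of dd_Smed_v6_13983_0_1, dd_Smed_v6_1028_0_1 or dd_Smed_v6_570_0_1 was left in *apob-M*, and no fold is given. The fold changes of 7 other transcripts became more than 1.5 times larger: the log2 fold change became 7.17 for dd_Smed_v6_4939_0_1, 5.80 for dd_Smed_v6_1202_0_1 and 5.75 for dd_Smed_v6_19_0_1. It became 3.47 for dd_Smed_v6_10_1_1, 3.54 for dd_Smed_v6_33_0_1, 3.60 for dd_Smed_v6_58_0_1 and 3.93 for the APLP2 homolog described next. Apart from dd_Smed_v6_4939_0_1, for which no test is given, these transcripts stayed called without *apob-M* 1.

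Other large increases with a best hit, taken from calls whose classes did not overlap, were in metabolic, matrix and transport homologs. The homolog of APLP2, a relative of the amyloid precursor protein (dd_Smed_v6_1268_0_1), was at 8.68, 2.06, 4.25 and 2.01 CPM in *apob-M* and 43.7, 27.7, 52.4 and 45.6 CPM in *apob-S*. The log2 fold change was 3.33 (SE 0.474, adjusted p = 0.000106 by edgeR). The homolog of CYP2J2, a cytochrome P450 that oxidizes polyunsaturated fatty acids, was at 2.43 to 11.8 CPM in *apob-M* and 23.1 to 33.1 CPM in *apob-S* (log2 fold change 2.19, SE 0.339). The homolog of SLC7A1, a carrier of cationic amino acids, was at 2.29 to 4.40 CPM in *apob-M* and 7.68 to 15.8 CPM in *apob-S* (log2 fold change 1.89, SE 0.223). APMAP, named for adipocyte plasma membranes, had a homolog at 129, 101, 118 and 103 CPM in *apob-M*. That homolog was at 331, 252, 284 and 271 CPM in *apob-S*, and its control mean was 82.8 (log2 fold change over *apob-M* 1.33, SE 0.0982, adjusted p = 1.71e-07 by edgeR). The homologs of TNXB, a matrix tenascin, of TTPAL, which resembles the tocopherol transfer protein, and of SLC30A10, a manganese exporter, were higher by 1.47, 1.41 and 1.29 on the log2 scale. All of these had edgeR adjusted p-values of 0.000271 or less.

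**Figure D3:**
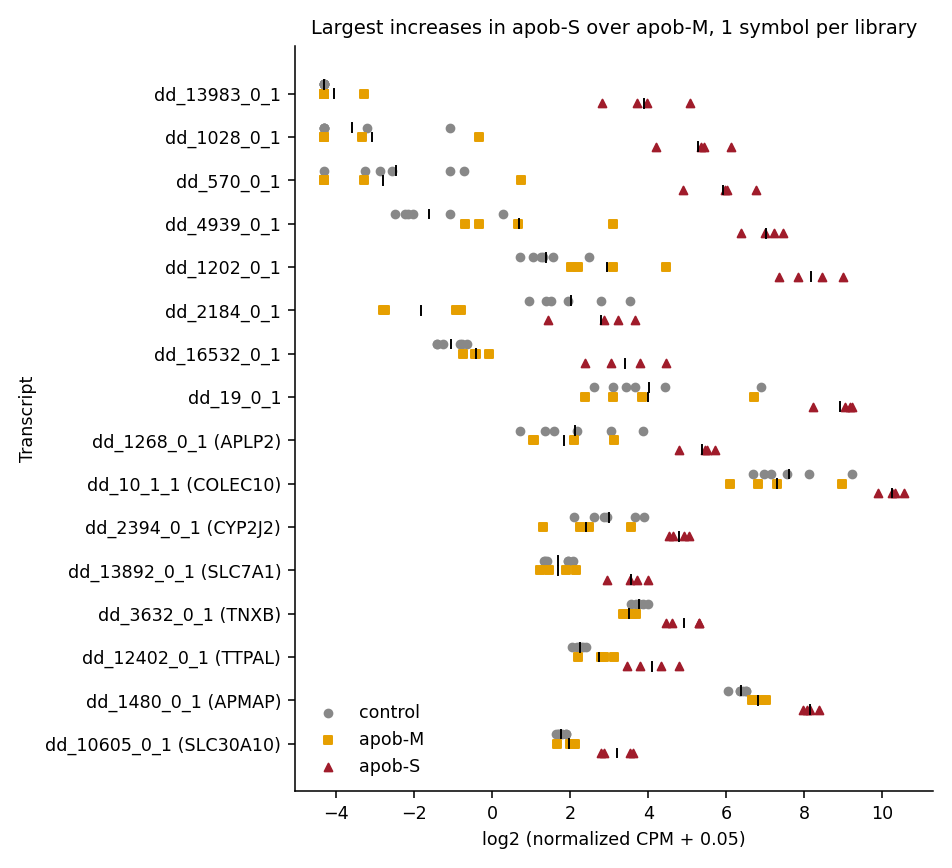
The 8 largest increases of any kind and the 8 largest with a human best hit, *apob-S* over *apob-M*, among called transcripts above a mean log2 CPM of 2 without overlap of the classes, a limit that leaves out the SYT7 homolog. The horizontal axis is log2 of normalized CPM plus 0.05, each symbol is a library, and ticks are means of these log2 values. By this choice, every *apob-S* symbol lies to the right of every *apob-M* symbol in each row. Single high control and *apob-M* libraries stand out for dd_19_0_1 and dd_10_1_1.

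Lists of lipid transcripts held calls in both directions. Members were chosen by annotation term, and many called members have no best hit here. Their shares are read against those of all tested transcripts (5.17% higher and 6.86% lower) and of best-hit transcripts (11.5% higher and 6.97% lower). The higher shares lay above that of all tested transcripts but near that of best-hit transcripts, and the lower shares lay on either side. Of 58 tested lipid transport transcripts (60 in the list), 8 (13.8%) were higher and 6 (10.3%) lower, with a median log2 fold change of 0.05 against 0.00134 over all tested transcripts. Of 145 tested triglyceride transcripts (149 in the list), 22 (15.2%) were higher and 12 (8.28%) lower (median 0.04). Of 166 tested cholesterol transcripts (170 in the list), 24 (14.5%) were higher and 8 (4.82%) lower (median 0.04). The 24 include the SYT7 homolog, which passed the filter only with the help of *apob-S*. With scaling by library size alone, 15 triglyceride and 16 cholesterol transcripts were higher. These lists overlap: 33 transcripts are shared by the triglyceride and cholesterol lists (22.8% and 19.9% of them). The largest increase after SYT7 was in dd_Smed_v6_2472_0_1, which is in the triglyceride and cholesterol lists and has no best hit here. It was at 52.3, 44.3, 54.0 and 46.5 CPM in *apob-M* and 96.9, 83.2, 88.6 and 82.5 CPM in *apob-S* (log2 fold change 0.84, SE 0.08, adjusted p = 1.78e-06 by edgeR). The homologs of PLIN5, a coat protein of lipid droplets, and ACACA, which makes malonyl-CoA for fatty acid synthesis, were higher by 0.15 and 0.27 (edgeR adjusted p = 0.00736 and 0.00161). The homolog of AGMO, which cleaves ether lipids, was higher by 0.35 (edgeR adjusted p = 2.8e-05). Lower members included the homolog of CAV3, the muscle caveolin, and dd_Smed_v6_5175_0_1, at −0.43 (edgeR adjusted p = 0.000227). The homolog of GLTP, a glycolipid carrier, was lower, at −0.19 (edgeR adjusted p = 0.0274). A lipid transport transcript, dd_Smed_v6_20782_0_1, was lower, at −0.34 (edgeR adjusted p = 0.0327), but lost its call without *apob-M* 1, *apob-M* 2, *apob-S* 3 or *apob-S* 4.

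Several lists drawn from transcripts that fell after *nkx2.2* knockdown leaned toward higher in *apob-S*. They are labelled intestinal because *nkx2.2* is an intestine-enriched factor, and intestinal expression of their members was not checked. These lists were annotation terms found among transcripts that fell after knockdown of *nkx2.2* in another experiment of the study, and most but not all of their members have a best hit. They are read against both the 5.17% higher of all tested and the 11.5% higher of best-hit transcripts. Of 29 lipid homeostasis transcripts, 11 (37.9%) were higher and none was lower (median log2 fold change 0.14). The homolog of NR1I3, a nuclear receptor that senses foreign compounds, was higher by 0.34 (edgeR adjusted p = 0.0137). Of 38 carboxylic acid transport transcripts, 14 (36.8%) were higher and 2 lower (median 0.16). Of 13 xenobiotic metabolism transcripts, 8 were higher and 1 lower (median 0.14). Of 27 steroid metabolism transcripts, 10 were higher and 2 lower (median 0.06). These lists overlap: 7 transcripts are shared by lipid homeostasis and steroid metabolism (24.1% and 25.9% of them). Apart from the GGT1 homolog, the higher calls of xenobiotic metabolism are also among those of steroid metabolism. Of 20 macroautophagy transcripts, 6 were higher and none lower (median 0.10), led by the homologs of VAMP8, a SNARE of autophagosome fusion (0.42), and SNX33, a sorting nexin (0.32). Scaling by library size alone left 7 of the 11 lipid homeostasis calls in number, as did edgeR's exact test and a fit of the 8 libraries alone. Among intestinal markers, *nkx2.2* was higher in *apob-S* and *ctsla*, *slc22a6* and *npc2* gave no call. The 2 lower of carboxylic acid transport became 1 without *apob-M* 2 or *apob-S* 3, the 2 lower of steroid metabolism became 4 without *apob-S* 2, and the 1 lower of xenobiotic metabolism became 2 without *apob-M* 4 or *apob-S* 2. A lower macroautophagy transcript was called without control 3, *apob-M* 1, *apob-M* 3 or *apob-S* 2, and 2 were lower at an unadjusted p under 0.05 in edgeR. The part of intestinal cell number in these counts was not tested.

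Lysosomal homologs were called in both directions. Of 40 tested transcripts (41 in the list), 11 (27.5%) were higher and 2 (5.0%) lower, against 11.5% and 6.97% of best-hit transcripts. The median log2 fold change was 0.08. Prosaposin (PSAP) is the precursor of activators of sphingolipid breakdown. Its homolog dd_Smed_v6_215_0_1 was at 972, 848, 943 and 817 CPM in *apob-M* and 1565, 1512, 1604 and 1724 CPM in *apob-S*, above a control mean of 578 and without overlap between the classes. The log2 fold change was 0.84 (SE 0.0934, adjusted p = 8.39e-06 by edgeR). The homologs of CLN8 and CLN6, which act in the export of lysosomal enzymes from the endoplasmic reticulum, were higher by 0.44 and 0.31 (edgeR adjusted p = 0.000703 and 0.0348). The cathepsin L homolog dd_Smed_v6_1363_0_1 was lower, at −0.73 (SE 0.0718, adjusted p = 2.34e-06 by edgeR), and another homolog of CTSL, dd_Smed_v6_48_0_1, was higher by 0.16 (edgeR adjusted p = 0.00576). The count of 11 higher became 5 with scaling by library size alone, 6 with edgeR's exact test and 6 without *apob-M* 3 and *apob-S* 2 together. The list of lysosome organization that the study drew from these libraries as higher in *apob-S* had 13 of 33 higher and 2 lower, and is not independent evidence of that direction. Its 13 became 7 with scaling by library size alone and 8 with edgeR's exact test. The 13 include the SYT7 homolog, which passed the filter only with the help of *apob-S*. A list of the same term, from transcripts that fell after *nkx2.2* knockdown, had 9 members in common. It had 6 of 23 higher and none lower (1 lower without *apob-M* 3).

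Membrane carriers and detoxification enzymes were called often. Many of their higher calls also stand in the carboxylic acid transport, steroid or xenobiotic metabolism lists above, as for SLC13A3, SLC7A1 and CYP2J2. Those calls are not separate evidence. Of 98 tested solute carrier homologs (99 in the list), 25 (25.5%) were higher and 8 (8.16%) lower, against 11.5% and 6.97% of best-hit transcripts. The median log2 fold change was 0.10. Members were taken by gene symbol. The lower ones include the homolog of SLC2A4RG (−0.29), named as a regulator of SLC2A4 and not itself a carrier. The homolog of SLC52A3, a riboflavin carrier, was higher by 0.97 (edgeR adjusted p = 1.43e-06). The homolog of SLC13A3, a sodium-coupled dicarboxylate carrier, was at 219 to 251 CPM in *apob-M* and 329 to 393 CPM in *apob-S* (log2 fold change 0.61, SE 0.0662). Homologs of SLC47A1 and SLC47A2, which export organic cations, were singled out after their values were seen: 7 of 9 were higher, by 0.26 to 0.71, and none was lower. Lower carriers were led by the homologs of SLC25A10, the mitochondrial dicarboxylate carrier (−0.71, edgeR adjusted p = 0.000242), and SLC43A3, a purine carrier (−0.59, edgeR adjusted p = 0.000754). Of 24 cytochrome P450 and detoxification homologs, 9 (37.5%) were higher and 4 (16.7%) lower (median 0.08). The homolog of CYP2A6 was higher by 0.44, while that of CYP2C18 was at 32.5 to 38.1 CPM in *apob-M* and 22.5 to 26.2 CPM in *apob-S* (log2 fold change −0.57, SE 0.0686, adjusted p = 2e-05 by edgeR). The sulfotransferase homolog of SULT1C4, at −0.80, lost its call without *apob-M* 2 or 4 or *apob-S* 1, 2 or 3. The count of 4 lower became 2 without *apob-M* 2 or without *apob-S* 3. Secreted proteases were higher in 4 of 11 (36.4%) and lower in none (1 without *apob-S* 2). Among them, the homolog of TMPRSS15, enteropeptidase, was at 37.8 to 44.4 CPM in *apob-M* and 56.0 to 61.1 CPM in *apob-S* (log2 fold change 0.56, SE 0.0529), and PRSS12 homologs were higher by 0.44 and 0.37.

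Immune homologs were mostly TRAF adaptors, which pass on signals of the tumor necrosis factor and Toll-like receptor families. Of 55 tested (56 in the list), 15 (27.3%) were higher and 3 (5.45%) lower, with a median log2 fold change of 0.04. The homolog of PGLYRP3, a peptidoglycan recognition protein, was higher by 0.51 (edgeR adjusted p = 0.000148), and that of A2ML1, a protease inhibitor, by 0.37 (edgeR adjusted p = 2.99e-06). TRAF homologs went both ways: of 36 tested, a family picked out after its values were seen, 9 were higher and 3 lower, with a median of −0.02. The TRAF2 homolog dd_Smed_v6_13061_0_1 was at 11.2 to 13.3 CPM in *apob-M* and 7.92 to 9.43 CPM in *apob-S* (log2 fold change −0.54, SE 0.0984, adjusted p = 0.00102 by edgeR). The count of 15 higher became 8 with scaling by library size alone or without *apob-M* 2. It became 9 without *apob-M* 4, *apob-S* 3 or *apob-S* 4. The study's own humoral immune response list, drawn from these libraries and so not independent evidence, had 7 of 21 higher and none lower. Neutrophil degranulation and cytokine signalling were terms that rose after *nkx2.2* knockdown. Of 31 neutrophil degranulation transcripts, 5 (16.1%) were higher and 4 (12.9%) lower. Of 39 cytokine signalling transcripts, 4 (10.3%) were higher and 4 (10.3%) lower. The shares were 11.5% higher and 6.97% lower over best-hit transcripts, and 5.17% and 6.86% over all tested transcripts. Without *apob-M* 2, the 4 lower of neutrophil degranulation became 1. With scaling by library size alone, cytokine signalling had 2 higher and 2 lower. Its 4 higher became 2 without *apob-M* 2, *apob-S* 3 or *apob-S* 4. The homolog of FTH1, the ferritin heavy chain, was among the higher (0.36, edgeR adjusted p = 0.0052).

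Pigment genes were examined separately, because pigment loss defined the classes. Of 10 homologs of pigment enzymes and regulators, 3 were higher and 2 lower, with a median log2 fold change of 0.03. The homolog of HAAO, which degrades 3-hydroxyanthranilate on the tryptophan pathway, was at 65.7, 62.7, 65.9 and 65.4 CPM in *apob-M*. It was at 94.0, 96.9, 90.9 and 93.2 CPM in *apob-S*, far outside the *apob-M* range (log2 fold change 0.53, SE 0.0498, adjusted p = 1.45e-06 by edgeR). The homolog of AADAT, a kynurenine aminotransferase, was higher by 0.40 (edgeR adjusted p = 4.65e-06). That of SLC24A5, an exchanger needed for vertebrate melanosome pigment, was higher by 0.52 (edgeR adjusted p = 0.00528). The homolog of KYNU, kynureninase, was at 22.4 to 24.7 CPM in *apob-M* and 14.5 to 21.5 CPM in *apob-S* (log2 fold change −0.47, SE 0.102, adjusted p = 0.0042 by edgeR). The homolog of ALAS2, the first enzyme of heme and porphyrin synthesis, was at 169, 187, 208 and 180 CPM in *apob-M* and 141, 146, 148 and 132 CPM in *apob-S*, below a control mean of 257. The groups did not overlap (log2 fold change −0.39, SE 0.0573, adjusted p = 0.00014 by edgeR). The lists of ommochrome synthesis, developmental pigmentation and tryptophan metabolism hold only members that fell after *nkx2.2* knockdown in another experiment of the study. They are not the whole of each pathway. None of 6 ommochrome synthesis transcripts was called by edgeR's quasi-likelihood test, edgeR's exact test, DESeq2 or limma-voom. At an unadjusted p under 0.05, 1 of them was higher and 0 lower in the quasi-likelihood test, and 1 was called higher without control 1 or in a fit of the 8 libraries alone. Of 15 developmental pigmentation transcripts, 3 (20.0%) were higher (ATP7A, C10orf11 and SLC24A5 homologs) and none lower. In them, 1 lower was called by DESeq2, without control 6, without *apob-M* 3 or without *apob-S* 2. Of 5 tryptophan metabolism transcripts, 3 (60.0%) were higher (HAAO, AADAT and ATP7A homologs) and none lower.

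Cilium transcripts were lower in *apob-S* or gave no call. The motile cilium is built on an axoneme moved by dynein arms and assembled by intraflagellar transport. Of 37 cilium and axoneme homologs, 16 (43.2%) were lower in *apob-S* and none was higher, also at an unadjusted p under 0.05, with a median log2 fold change of −0.25, against 6.97% lower among best-hit transcripts. List medians relative to the *apob-M* mean were −0.06, 0.09, −0.04 and −0.01 in *apob-M* 1 to 4. They were −0.18, −0.19, −0.30 and −0.27 in *apob-S* 1 to 4, below every *apob-M* library. The homolog of FOXJ1, the transcription factor that turns on motile cilium genes, was lower, at −0.38 (edgeR adjusted p = 0.000638). Dynein heavy chain homologs were lower too, at −0.43 for DNAH3, −0.41 for DNAH10 and −0.23 for DNAH5. The DNAH3 homolog was at 56.1, 67.5, 55.6 and 53.0 CPM in *apob-M* and 45.8, 46.9, 41.7 and 38.4 CPM in *apob-S*, without overlap (SE 0.0811, adjusted p = 0.00146 by edgeR). NME7, a kinase of the axoneme, had a homolog lower, at −0.50 (edgeR adjusted p = 0.00122). DRC1, of the nexin link between microtubule doublets, had one lower, at −0.29 (edgeR adjusted p = 0.000328). The intraflagellar transport homologs TRAF3IP1, WDR19 and IFT172 were lower, at −0.29, −0.27 and −0.19. The study's lists of intraciliary transport and axonemal dynein assembly had 21 of 32 and 21 of 30 lower and none higher, with medians of −0.30 and −0.35. Both lists were drawn from these libraries as lower in *apob-S* and are not independent evidence. They share 5 and 2 members with the best-hit list. Within them, dd_Smed_v6_4176_0_1 was at 183, 249, 196 and 184 CPM in *apob-M* and 158, 158, 138 and 122 CPM in *apob-S*. Its *apob-S* libraries lay below all *apob-M* libraries (log2 fold change −0.50, SE 0.096, adjusted p = 0.00164 by edgeR). The epidermal marker *prog-1* was lower in the same libraries, and the part of ciliated cell number in these counts was not tested.

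**Figure D4:**
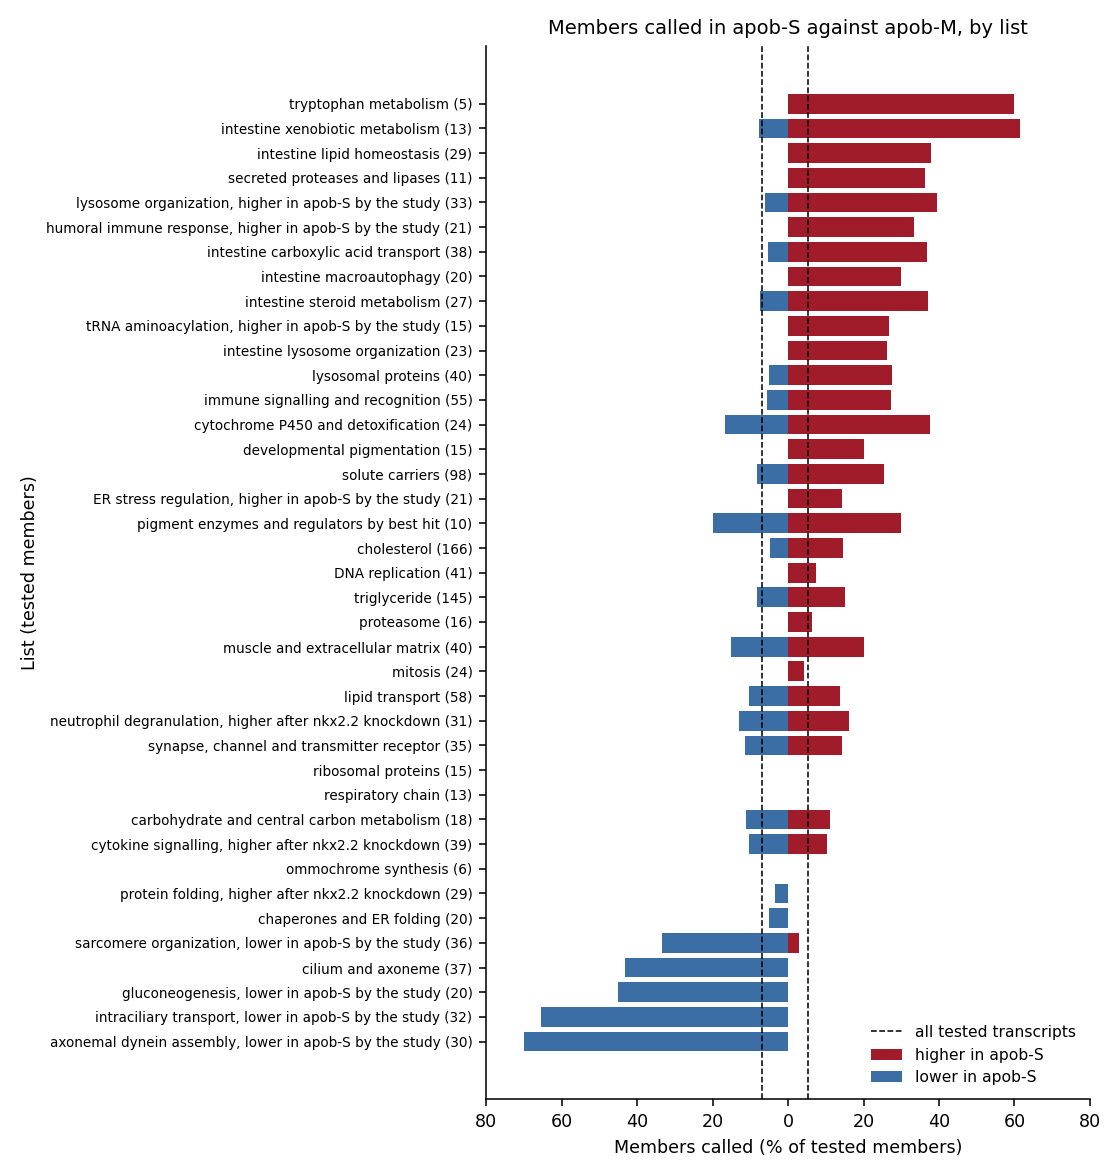
Members called higher (right) and lower (left) in *apob-S* against *apob-M*, as percent of the tested members of each list, whose number is in parentheses. Dashed lines mark the 5.17% higher and 6.86% lower of all tested transcripts. The study's cilium lists (70.0% and 65.6%) and gluconeogenesis list (45.0%) and the best-hit cilium list (43.2%) extend furthest to the left. Lists labelled intestine, drawn from transcripts that fell after *nkx2.2* knockdown, extend to the right.

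Muscle and matrix homologs were called in both directions. Of 40, 8 (20.0%) were higher and 6 (15.0%) lower (median log2 fold change −0.04), against 11.5% and 6.97% of best-hit transcripts. With scaling by library size alone, 5 were higher. The CAV3 homolog was at 36.4, 51.2, 42.0 and 50.5 CPM in *apob-M* and 28.3, 30.4, 21.6 and 22.2 CPM in *apob-S*. Both classes were below the control range of 66.8 to 79.8 CPM. The log2 fold change of *apob-S* over *apob-M* was −0.81 (SE 0.109, adjusted p = 6.29e-05 by edgeR). The homolog of SMTN, a smooth muscle actin-binding protein, was lower, at −0.51, and that of COL1A2, a fibrillar collagen, by −0.35 (edgeR adjusted p = 1.83e-05 and 6.83e-05). Matrix homologs were among the higher transcripts. The homolog of HSPG2, the basement membrane proteoglycan perlecan, was at 3.23 to 3.76 CPM in *apob-M* and 5.69 to 7.49 CPM in *apob-S* (log2 fold change 0.91, SE 0.159). That of LOXL2, a collagen cross-linking enzyme, was higher by 0.48. The Z-disc protein LDB3 had a homolog lower, at −0.51 (dd_Smed_v6_10318_0_1, edgeR adjusted p = 0.00042) and another higher by 0.27 (dd_Smed_v6_3385_0_1, edgeR adjusted p = 0.039). The latter lost its call without *apob-M* 1, 2 or 4 or *apob-S* 3 or 4. The study's sarcomere list, drawn from these libraries as lower in *apob-S* and not independent evidence, had 12 of 36 lower and 1 higher, the LDB3 homolog just given.

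A gluconeogenesis list held lower calls, and other carbon metabolism and neural homologs were called in both directions. The study's gluconeogenesis list, also drawn from these libraries, had 9 of 20 (45.0%) lower and none higher (median −0.12), and is not independent evidence. That count became 5 without *apob-M* 3 or *apob-S* 1, 4 without *apob-S* 3, 4 with edgeR's exact test and 5 with scaling by library size alone. The largest decrease there after SLC25A10 was in dd_Smed_v6_6169_0_1, at 95.5 to 107 CPM in *apob-M* and 62.1 to 68.0 CPM in *apob-S* (log2 fold change −0.66, SE 0.0608, adjusted p = 1.3e-06 by edgeR). Of 18 carbohydrate and central carbon homologs, 2 (11.1%) were higher and 2 (11.1%) lower, against 11.5% and 6.97% of best-hit transcripts. The homolog of FH, fumarase, was higher by 0.42 (edgeR adjusted p = 2.5e-05), and that of ME1, malic enzyme, by 0.71, a call lost without *apob-M* 2, *apob-M* 4, *apob-S* 1 or *apob-S* 3. That of GBE1, the glycogen branching enzyme, was lower, at −0.29 (edgeR adjusted p = 0.000456). Of 35 synapse, channel and transmitter receptor homologs, 5 (14.3%) were higher and 4 (11.4%) lower (median −0.10), against 11.5% and 6.97% of best-hit transcripts. The 5 higher include the SYT7 homolog, which passed the filter only with the help of *apob-S*. The 4 lower became 2 with scaling by library size alone or without *apob-M* 3 and *apob-S* 2 together. The homolog of SLC6A5, a glycine transporter, was at 63.1 to 71.2 CPM in *apob-M* and 92.5 to 110 CPM in *apob-S* (log2 fold change 0.55, SE 0.0775), and that of SLC17A6, a vesicular glutamate transporter, was lower, at −0.25. The SLC17A6 call was lost without *apob-M* 1, *apob-S* 1 or *apob-S* 3.

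Above a mean log2 CPM of 2, and among transcripts whose classes did not overlap, the largest decreases were about 2-fold. The transcript dd_Smed_v6_14646_0_1 was at 4.94, 4.25, 3.41 and 3.91 CPM in *apob-M* and 1.81, 2.69, 1.17 and 1.35 CPM in *apob-S* (log2 fold change −1.23, SE 0.216, adjusted p = 0.000747 by edgeR). The transcript dd_Smed_v6_238_1_1 was at 1574, 2451, 1799 and 1992 CPM in *apob-M* and 1154, 1222, 746 and 748 CPM in *apob-S*. In neither of them did the groups overlap (log2 fold change of the latter −1.01, SE 0.219, adjusted p = 0.00406 by edgeR). A transcript of the same assembly component, dd_Smed_v6_238_0_1, had a log2 fold change of −1.02 but lost its call without *apob-M* 2, *apob-S* 3 or *apob-S* 4. Further decreases were −1.15 for dd_Smed_v6_11078_0_1, −1.02 for dd_Smed_v6_9442_0_1, −0.93 for dd_Smed_v6_13478_0_1 and −0.91 for dd_Smed_v6_68_0_1. Best-hit homologs with large decreases included LMNB2, a nuclear lamin (−0.59), and ASNS, asparagine synthetase (−0.58). The homolog of ARF1, a small GTPase of vesicle budding, was at 211, 279, 288 and 301 CPM in *apob-M* and 181, 187, 159 and 184 CPM in *apob-S*. Its log2 fold change over *apob-M* was −0.60 (SE 0.0973, adjusted p = 0.000344 by edgeR), while all 8 libraries lay above the control range of 17.9 to 24.7 CPM.

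Most housekeeping and cell cycle lists held few calls. The shares were 11.5% higher and 6.97% lower over best-hit transcripts, and 5.17% and 6.86% over all tested transcripts. Of 15 tested ribosomal protein homologs (16 in the list) and 13 respiratory chain homologs, edgeR's quasi-likelihood test called none, and 0 passed at an unadjusted p under 0.05, with edgeR's exact test, with DESeq2 or with limma-voom. Of 20 chaperones, 1 was lower, the homolog of HSP90AA1 (−0.17, edgeR adjusted p = 0.00355), a call lost with edgeR's exact test, and none was higher. DESeq2 and limma-voom called 1 higher, as did the fits without *apob-M* 3, *apob-M* 4 or *apob-S* 2. The 29 protein folding transcripts that rose after *nkx2.2* knockdown held that same call and no other, and 2 lower without *apob-M* 3. Of 16 proteasome homologs, PSMC3 was higher by 0.38. Of 41 tested DNA replication homologs (42 in the list), 3 (7.32%) were higher, below the best-hit share, and none lower, with a median log2 fold change of 0.08. They were the homologs of CDT1, MCM7 and RRM2B, of replication licensing, the replicative helicase and nucleotide supply. That count became 0 with scaling by library size alone, 1 without *apob-M* 2 or *apob-S* 4, and 5 without *apob-M* 1 or *apob-S* 2. Of 24 tested mitosis homologs (26 in the list), CKS2 alone was higher, and it lost its call without most single libraries. Of the study's tRNA aminoacylation list, 4 of 15 (26.7%) were higher. None was called without *apob-M* 2 or without *apob-S* 4, 1 without *apob-M* 4, 2 without *apob-S* 2, and none with scaling by library size alone. The ER stress list of the study had 3 of 21 (14.3%) higher, led by the homolog of LRRK2, a kinase of membrane traffic (0.39), and 1 higher with scaling by library size alone. Both lists were drawn from these libraries and are not independent evidence.

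**Figure D5:**
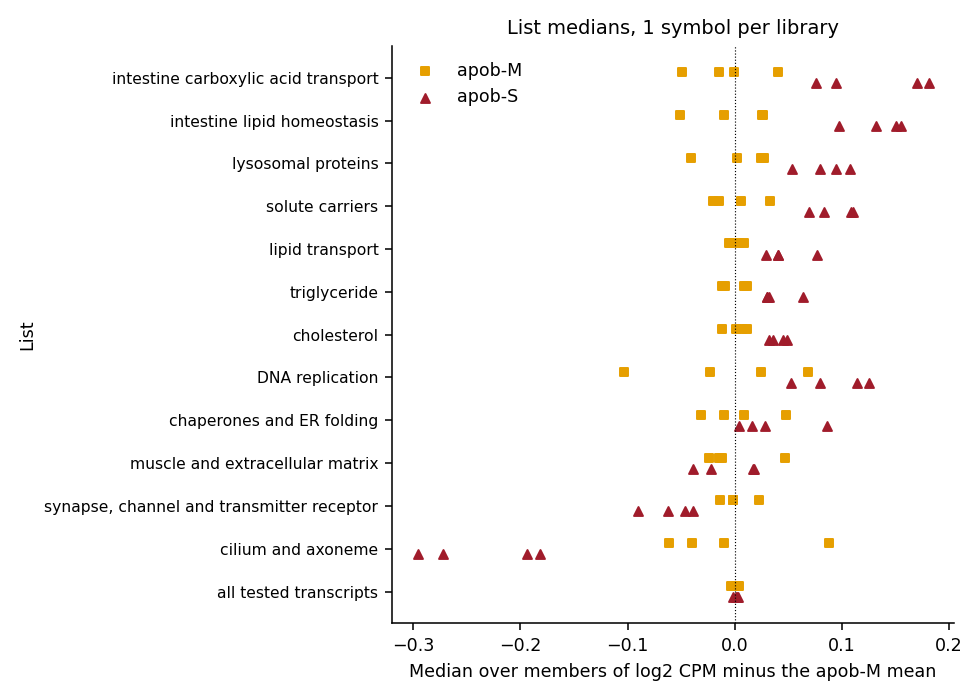
Median over the members of each list of log2 CPM minus the *apob-M* mean, by library. Squares are *apob-M* and triangles *apob-S*. The cilium and axoneme medians of *apob-S*, −0.30 to −0.18, lie below all *apob-M* medians, while the medians of all tested transcripts lie together near 0.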

How the data were processed

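RNA-seq of whole uninjured planarians gave 14 libraries, grouped by their labels. Reads were trimmed by the authors (BBDuk), aligned to the unique dd_Smed_v6 transcripts with all alignments reported (Bowtie2 2.3.1) and counted with featureCounts (Subread 1.6.3). A read with several alignments counted on each transcript. The authors deposited the raw counts per transcript, not normalized, and these were used. A second deposited table holds the authors' log2 fold changes, CPM and false discovery rates from edgeR's exact test and was not used. No column of per-sample counts was left unmatched, and no replicates agreed within sampling noise (chi-square per degree of freedom 2.95 or more). Coordinates are not given, as no genome was used.

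Counts were fitted in R 4.3.3 with edgeR 4.0.16 (TMM, quasi-likelihood, group as the only term, all 14 libraries), for *apob-S* minus *apob-M*. The filter was 1 CPM or more in 4 libraries or more, and p-values were adjusted over all transcripts that passed it (Benjamini-Hochberg, 0.05). The standard error of a log2 fold change is its size divided by the root of the F statistic. Markers and targets also had an exact two-sided permutation test. Lists were described by counts and medians, without a test.

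Named transcripts were called, without overlap between the classes and above a mean log2 CPM of 2: the 8 largest and 8 most negative log2 fold changes, and the same 8 and 8 among those with a human best hit. Every marker was named, and up to 2 called members in each direction of each list. Further list members were named with their values. Some transcripts that meet the rule are not reported here. Members, lists and rule were chosen with earlier results of these data known. Best hits and list membership come from the parts of the study's tables that were at hand.

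The fit was repeated with DESeq2 1.42.0, edgeR's exact test, limma-voom (limma 3.58.1), other scaling, other filters, a stricter threshold, the compared libraries alone, a replicate block, 1 transcript per assembly component and each library left out. Omission of 2 libraries together, *apob-M* 3 with *apob-S* 2 or *apob-M* 1 with control 3, was chosen after seeing the data.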

Additional observations from a re-analysis of the deposited data

Results flagged for a closer look

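Within a group, a library was marked when its gap to the nearest other library was a large part of the range of the group (Dixon's test at its 95% critical value). Chance marks about 1 in 20 groups, and 26 of the 351 groups looked at (7.41%) were marked. Control 3 was the marked library in 8 of them and *apob-M* 1 in 7. All values are normalized CPM.

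Control 3 was high for dd_Smed_v6_1028_0_1 (0.42, the others 0 to 0.0585), dd_Smed_v6_4939_0_1 (1.17, the others 0.129 to 0.42), dd_Smed_v6_1202_0_1 (5.50, the others 1.58 to 2.89) and dd_Smed_v6_19_0_1 (118, the others 6.01 to 21.5). It was also high for dd_Smed_v6_238_0_1 (45.0, the others 13.4 to 24.5), dd_Smed_v6_33_0_1 (123, the others 15.5 to 45.2) and the COLEC10 homolog dd_Smed_v6_10_1_1 (596, the others 102 to 280). It was low for dd_Smed_v6_5440_0_1 (4.06, the others 4.62 to 4.93).

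*apob-M* 1 was high for dd_Smed_v6_13983_0_1 (0.0526, from 1 read, the others 0), dd_Smed_v6_1028_0_1 (0.736, the others 0 to 0.0494), dd_Smed_v6_570_0_1 (1.63, the others 0 to 0.0528), dd_Smed_v6_4939_0_1 (8.52, the others 0.561 to 1.53) and dd_Smed_v6_19_0_1 (104, the others 5.17 to 14.2). It was low for *nkx2.2* (119.0, the others 126 to 127) and *laminin* (36.1, the others 47.9 to 48.1).

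*apob-M* 2 was high for dd_Smed_v6_68_0_1 (418), the LMNB2 homolog (201) and the VAMP8 homolog (21.5) and low for the HAAO homolog (62.7). *apob-M* 4 was high for *ldlr-2* (134) and dd_Smed_v6_12017_0_1 (20.0) and low for *npc2* (348). *apob-S* 1 was high for the FH homolog (56.2) and low for the RRM2B homolog (19.0). *apob-S* 4 was high for dd_Smed_v6_2962_0_1 (68.97) and low for dd_Smed_v6_7145_0_1 (30.6).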

How the results depend on the processing

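At an adjusted p under 0.01, 1267 transcripts differed, 579 higher and 688 lower in *apob-S*. With scaling by library size alone, 583 were higher against 954, and the share of calls that were higher became 35.4% against 43.0%. The count of all calls was 2002 with edgeR's exact test, 2373 with DESeq2, 2250 with limma-voom, 1954 from the 8 compared libraries alone and 2324 with at least 5 CPM. Leaving out each library in turn gave 1632 (without *apob-M* 2) to 2230 calls. Decreases of at least 2-fold numbered 23, but 11 with DESeq2, 8 with at least 5 CPM, 15 without *apob-M* 2 and 35 without *apob-M* 3 and *apob-S* 2, a pair chosen after seeing the data. Equal replicate numbers did not pair the libraries (correlations of deviations over all tested transcripts −0.0264 to 0.0599). A replicate block gave 2127 calls, 900 higher and 1227 lower. Of 104 named and called transcripts, 83 kept their call in every setting tried at the 0.05 threshold, and none changed direction. ChAT was called by DESeq2 alone (log2 fold change −0.18, adjusted p = 0.0368). Low counts limit the fold changes of transcripts near 0 in *apob-M*.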

Other observations

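Several transcripts were present in some libraries and nearly absent in others, in a way that did not follow the classes. They were chosen after their values were seen. For dd_Smed_v6_11485_0_1, each of the 6 control libraries, *apob-M* 1 and *apob-M* 2 held 89 to 145 reads (5.21 to 6.77 CPM), while *apob-M* 3, *apob-M* 4 and the 4 *apob-S* libraries held 1 read in all. The same 8 libraries held 49 to 95 reads each of dd_Smed_v6_7504_0_1, and the other 6 held 2 in all. They held 13 to 39 reads each of dd_Smed_v6_13087_0_1, and the other 6 held none, which allows up to 3 reads over those libraries. The edgeR log2 fold changes of *apob-S* over *apob-M* were −7.35, −6.10 and −6.85 (adjusted p = 0.00513, 0.00695 and 0.0191). These 3 transcripts are the 3 called decreases of at least 8-fold, and the *apob-M* libraries split evenly between the high and the low side in each of them.

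The libraries rich in dd_Smed_v6_4_1_1, *apob-M* 3 and *apob-S* 2, also deviated from their group means in a like direction over 11077 transcripts with a mean log2 CPM above 3 (Pearson r across transcripts 0.61). *apob-M* 1 and *apob-S* 2 deviated in opposite directions (r = −0.58), as did *apob-M* 3 and *apob-S* 4 (r = −0.54), while *apob-M* 1 and *apob-S* 4 deviated in a like direction (r = 0.48). Over all tested transcripts, the correlations of these pairs were weaker, in the same order 0.239, −0.201, −0.199 and 0.142. Transcripts are not independent replicates, and the source of these likenesses was not tested.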
